A study of Mus musculus with 8 samples.

Results

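The cadherins and non-clustered protocadherins of mouse brain were followed in cells carrying GLAST, the glutamate transporter of radial glia and astrocytes. The genes were chosen by symbol, as every gene of the deposited table named Cdh or Pcdh directly followed by a digit, which gave 35 of 23284 genes. The series holds 8 RNA-seq libraries from whole brains of wild-type C57BL/6J mice, 4 from postnatal day 0 (P0) and 4 from postnatal day 8 (P8). Cells of both ages were dissociated and sorted with magnetic anti-GLAST beads, and no agent or allele differs between the ages. Sorted cells were labelled as radial glia at P0 and as astrocyte precursors at P8, and each library is named by its age and the replicate number of its label, such as P0 1, with values always in the order of those numbers. The labels do not say whether replicates came from separate animals, so p-values measure the spread between these libraries.

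Cadherins are calcium-dependent adhesion proteins of the cell surface. Classical type I and type II cadherins bind their own kind, or close relatives, on the neighbouring cell and hold the actin skeleton through beta-catenin and alpha-catenin. The choice of cadherin helps sort cells into tissues, and in the brain N-cadherin holds together the apical junctions of radial glia. Non-clustered protocadherins are single genes outside the large protocadherin clusters. Most belong to the delta-1 or delta-2 group, which bind weakly, lack the classical catenin-binding tail and act in cell sorting, migration and wiring.

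Total counts per library ranged from 30708719 to 94308235, so a floor of 3 counts corresponded to 0.0318 to 0.0977 CPM, the count scaled to a common library total. Slc1a3, the gene of GLAST, was at 228 to 331 CPM at P0 and 3718 to 5029 CPM at P8. The astrocyte list summed to 2072 to 3090 CPM at P0 and 15565 to 18004 CPM at P8, and the radial glia list to 1791 to 2495 and 9060 to 10464 CPM, with 8 of 10 radial glia markers called higher and 2 lower at P8 although it is the P0 cells that carry that name. Markers of other cells were also read at P0, where the choroid plexus list summed to 27656 to 65569 CPM, against 207 to 3144 CPM at P8. Of further lists, myelin markers were called higher for 6 and lower for 1 of 8, ependymal markers higher for 2 and lower for 5 of 7, and erythroid markers lower for all 5 tested. Microglia and neuroblast markers were called higher for 8 of 10 and 6 of 9, although the ages did not overlap for only 4 of each. No gene of the astrocyte, radial glia, endothelial, pericyte, choroid plexus, neuron and oligodendrocyte precursor lists was at 0 in any library. In such bulk libraries a lower proportion of cells of a type and less RNA per cell cannot be told apart.

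Of the 35 genes, 33 passed the filter on low counts and were tested, and 26 of these differed between the ages. The edgeR quasi-likelihood test, with Benjamini-Hochberg adjustment over all 16808 genes tested and a threshold of 0.05, called 17 higher and 9 lower at P8, while 7 were not called. Among all genes tested, 49.5% were called, 24.5% higher and 25% lower. For each of the 17 higher genes all P8 libraries lay above all P0 libraries, and for each of the 9 lower genes all lay below. Such separation was found upwards for 20.9% and downwards for 26.3% of all genes tested. Of the called genes, 15 rose and 8 fell by at least 2-fold, against 14.8% and 16.7% of all genes tested. The median log2 fold change of P8 against P0 was 1.02 over the 33 genes and 0.044 over all genes tested.

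**Figure D1:**
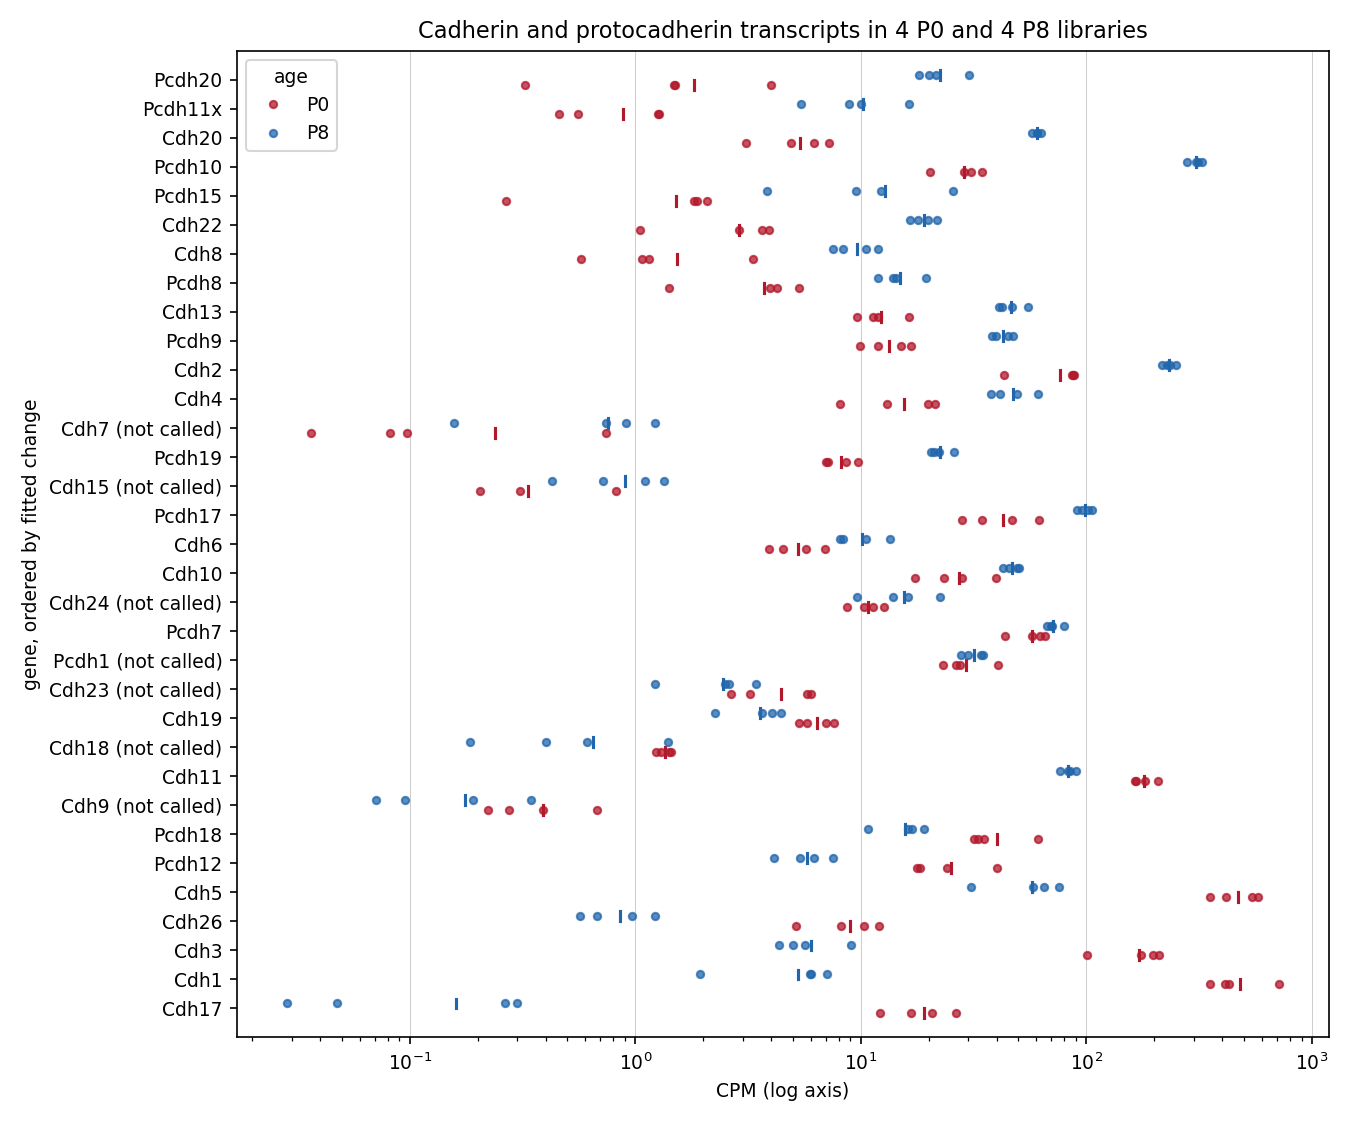
CPM on a log axis of the 33 tested genes, ordered by fitted change, with 1 point per library, red for P0 and blue for P8, and a bar at the mean of 4 libraries. A value of 0 (Cdh15 in P0 2) is not drawn, and at the bottom Cdh17, Cdh1 and Cdh3 fell, while at the top Pcdh20, Pcdh11x, Cdh20 and Pcdh10 rose with no overlap of the ages.

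Type I cadherins went in opposite directions, with E- and P-cadherin down and N- and R-cadherin up. Cdh1, which encodes E-cadherin, the main adhesion protein of epithelia, measured 718, 412, 429.6 and 354 CPM in the 4 P0 libraries against 1.94, 5.98, 5.99 and 7.11 CPM in the 4 P8 libraries. It fell 87.02-fold (log2 fold change -6.44, SE 0.46, edgeR adjusted p = 6.58e-06), and P0 1 was the highest P0 library. Cdh3, which encodes P-cadherin, another epithelial cadherin, measured 101, 209.5, 198 and 175 CPM in the 4 P0 libraries against 4.98, 5.66, 4.32 and 9.09 CPM in the 4 P8 libraries. It fell 26.8-fold (log2 fold change -4.75, SE 0.32, edgeR adjusted p = 4.83e-06), and here P0 1 was the lowest P0 library. Cdh3 and Cdh1 are neighbours in the genome: Cdh3 lies on chromosome 8 (109034791 to 109080808, plus strand) and Cdh1 begins 46.4 kb further on, at 109127251 to 109194146 on the same strand (NCBIM37, GENCODE M1).

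Most markers of the epithelial choroid plexus and of the pericytes, smooth muscle and meninges were lower at P8, as were Cdh1 and Cdh3. All 10 choroid plexus markers and 9 of 12 pericyte, smooth muscle and meningeal markers were called lower at P8, and the other 3 were not called. The latter list summed to 10952, 8586, 6719 and 5821 CPM in the P0 libraries and to 468, 656, 1154 and 866 CPM in the P8 libraries, and the choroid plexus list to 29420, 27656, 44102 and 65569 and 952, 962, 207 and 3144 CPM. Cdh1 was highest in P0 1, where the pericyte, smooth muscle and meningeal list was also highest but the choroid plexus list was not. Cdh3, in contrast, was lowest at P0 in P0 1. Relative to the pericyte, smooth muscle and meningeal list Cdh1 amounted to 4.802% to 6.55% at P0 and 0.414% to 0.911% at P8. Relative to the choroid plexus list it amounted to 0.5402% to 2.44% and 0.204% to 2.89%, with overlapping ages. Ttr alone gave 22940 to 61703 CPM of the choroid plexus list at P0 and 176 to 2987 CPM at P8. Shares in that list, here and below, thus mostly reflect Ttr. In the pericyte, smooth muscle and meningeal list, Col1a1, Col1a2 and Igf2 gave 800 to 1909, 1849 to 3522 and 2389 to 4314 CPM at P0. At P8 they gave 65.4 to 261, 161.5 to 403 and 85.6 to 254.5 CPM. Shares in this list, here and below, mostly reflect these genes. Cdh3 amounted to 0.267% to 0.758% of the choroid plexus list at P0 and 0.289% to 2.09% at P8, also overlapping. The part of these cells in the fall of Cdh1 and Cdh3 was not tested.

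Cdh2, which encodes N-cadherin, the classical cadherin of neural progenitors, neurons and glia, measured 43.1, 88.2, 86.4 and 87.7 CPM in the 4 P0 libraries against 236, 227, 251 and 216 CPM in the 4 P8 libraries. It rose 3.23-fold (log2 fold change 1.69, SE 0.21, edgeR adjusted p = 0.000169), and P0 1 lay well below the other 3 P0 libraries, which were close together. Of 12 astrocyte markers 9 were called higher and 1 lower. Cdh2 amounted to 1.394%, 3.39%, 4.11% and 4.23% of the astrocyte sum in the P0 libraries. In the P8 libraries it amounted to 1.388%, 1.26%, 1.61% and 1.29%. Only P0 1 lay within the P8 range, and in the other P0 libraries the share was above all P8 libraries. Compared with those, Cdh2 rose by less than the list. In P0 1, Gja1 and Gjb6 gave 1533 and 307 CPM of the astrocyte sum. In the other P0 libraries they gave 515 to 891 and 115 to 126 CPM. Gja1 was not called, and Gjb6 was the marker called lower. The part of astrocytes in the rise of Cdh2 was not tested. Cdh4, which encodes R-cadherin and was first described in retina, measured 8.09, 13.03, 19.9 and 21.4 CPM in the 4 P0 libraries against 41.2, 49.3, 60.8 and 37.6 CPM in the 4 P8 libraries. It rose 3.21-fold (log2 fold change 1.68, SE 0.29, edgeR adjusted p = 0.00117), with P0 1 and P0 2 below the other P0 libraries. An exon of Cdh4 overlaps the predicted gene Gm10711 on the same strand, so reads there could belong to either. Cdh2 lies on chromosome 18 (16747386 to 16967755, minus strand) and Cdh4 on chromosome 2 (179177136 to 179634078, plus strand). Cdh15, the M-cadherin gene of muscle and of cerebellar granule cells, was at 0 to 0.824 CPM at P0 and 0.427 to 1.35 CPM at P8 and was not called (edgeR adjusted p = 0.163).

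Of 12 tested type II cadherins, 5 rose, 3 fell and 4 were not called. The 5 that rose were Cdh20, Cdh22, Cdh8, Cdh6 and Cdh10, and the 3 that fell were Cdh5, Cdh11 and Cdh19. Cdh5, which encodes VE-cadherin of endothelial junctions, measured 540.4, 577, 418 and 354 CPM in the 4 P0 libraries against 30.8, 75.4, 58.2 and 65 CPM in the 4 P8 libraries. It fell 7.79-fold (log2 fold change -2.96, SE 0.29, edgeR adjusted p = 3.53e-05), and within P8 it was lowest in P8 1. Of 12 endothelial markers 11 were called lower and 1 was not called, and the list, which does not hold Cdh5, summed to 2186, 2381, 2479 and 1832 CPM in the P0 libraries and 419, 819.9, 672 and 806 CPM in the P8 libraries. The order of the P8 libraries was the same for Cdh5 and for that list. Cdh5 amounted to 16.9% to 24.7% of the endothelial sum at P0 and to 7.34% to 9.196% at P8, without overlap. The part of endothelial cells in its fall was not tested.

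Cdh11, whose product OB-cadherin is known from mesenchymal cells and bone and is also made in brain, measured 183, 207, 166 and 164 CPM in the 4 P0 libraries against 76.04, 82.7, 90.2 and 84.3 CPM in the 4 P8 libraries. It fell 2.05-fold (log2 fold change -1.03, SE 0.12, edgeR adjusted p = 8.87e-05) and varied little among the libraries of an age. Relative to the pericyte, smooth muscle and meningeal list, Cdh11 amounted to 1.67% to 2.82% at P0 and 7.82% to 16.2% at P8. It thus fell by less than the summed list. It also fell by less than each of the 9 markers called lower there, while Rgs5, Acta2 and Tagln were not called. Cdh19, a cadherin gene known from Schwann cell precursors, measured 5.75, 5.31, 6.98 and 7.604 CPM in the 4 P0 libraries against 4.03, 2.26, 3.66 and 4.41 CPM in the 4 P8 libraries. It was called 1.695-fold lower (log2 fold change -0.76, SE 0.25, edgeR adjusted p = 0.0293). The call was lost without P0 3, P0 4, P8 2 or P8 3 (edgeR adjusted p = 0.0679, 0.0744, 0.0603 and 0.0692).

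Cdh20 had the largest fitted rise of the type II genes. It measured 3.101, 7.23, 4.91 and 6.23 CPM in the 4 P0 libraries against 62.7, 60.7, 60.3 and 57.5 CPM in the 4 P8 libraries, so the 4 P8 libraries lay within a few CPM of each other. The rise was 11.9-fold (log2 fold change 3.58, SE 0.25, edgeR adjusted p = 5.68e-06). Cdh22 measured 1.05, 2.898, 3.92 and 3.65 CPM in the 4 P0 libraries against 17.9, 21.7, 19.9 and 16.5 CPM in the 4 P8 libraries. It rose 7.01-fold (log2 fold change 2.81, SE 0.36, edgeR adjusted p = 0.000185), and P0 1 was again the lowest library. Against the astrocyte list Cdh20 amounted to 0.1003% to 0.301% at P0 and 0.337% to 0.388% at P8, without overlap. Gja1, which was not called, gave 515 to 1533 CPM of that list at P0. Slc1a2, Aqp4, Gfap and Slc1a3 rose by more than Cdh20 (69.3-fold, 57.7-fold, 38.4-fold and 14.9-fold). The other astrocyte markers called higher rose by less, and the part of astrocytes in the rise of Cdh20 was not tested. Cdh20 lies on chromosome 1 (106665106 to 106892058, plus strand) and Cdh22 on chromosome 2 (164937007 to 165060353, minus strand).

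Cdh8, a type II cadherin of particular neuron groups and their synapses, measured 0.575, 1.07, 1.15 and 3.32 CPM in the 4 P0 libraries against 8.33, 7.53, 11.9 and 10.6 CPM in the 4 P8 libraries. It rose 6.55-fold (log2 fold change 2.71, SE 0.49, edgeR adjusted p = 0.00134), and 10.9-fold without P0 4, which was far above the other P0 libraries. The neuron marker list was also highest at P0 in P0 4, at 29.6, 39.4, 40.8 and 88.1 CPM over the P0 libraries and 609, 87.2, 426 and 571 CPM over the P8 libraries. At P8, Cdh8 was 7.53 CPM in P8 2, its lowest, where the neuron list was lowest too. In P8 1, where the list was highest, Cdh8 was at only 8.33 CPM. Cdh8 amounted to 1.94% to 3.77% of the neuron sum at P0 and 1.37% to 8.63% at P8, with overlap. Of the 11 neuron markers 10 were called higher and 1 was not called, and the part of neurons in the rise of Cdh8 was not tested. Exons of Cdh8 overlap the non-coding gene Gm15679 on the other strand, and the library kit does not mark strand.

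Cdh10 and Cdh6 rose less. Cdh10, another type II cadherin of brain, measured 17.4, 39.8, 28.1 and 23.5 CPM in the 4 P0 libraries against 42.9, 50.1, 49.02 and 45.5 CPM in the 4 P8 libraries. It rose 1.83-fold (log2 fold change 0.87, SE 0.22, edgeR adjusted p = 0.00918), with P0 2 close to the lowest P8 library. Cdh6, K-cadherin of embryonic kidney that also marks regions of embryonic brain, measured 4.497, 6.94, 3.9 and 5.71 CPM in the 4 P0 libraries against 8.37, 10.6, 13.4 and 8.05 CPM in the 4 P8 libraries. Its rise was 2.03-fold (log2 fold change 1.02, SE 0.25, edgeR adjusted p = 0.00744). Cdh24 measured 12.7, 11.3, 8.64 and 10.4 CPM in the 4 P0 libraries against 13.96, 9.63, 22.6 and 16.2 CPM in the 4 P8 libraries, and its ages overlapped (edgeR adjusted p = 0.0674). It was called higher by DESeq2 (adjusted p = 0.0482) and by edgeR without P8 2 (adjusted p = 0.0205). Exons of Cdh24 overlap the gene CT009512.1 on the other strand.

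**Figure D2:**
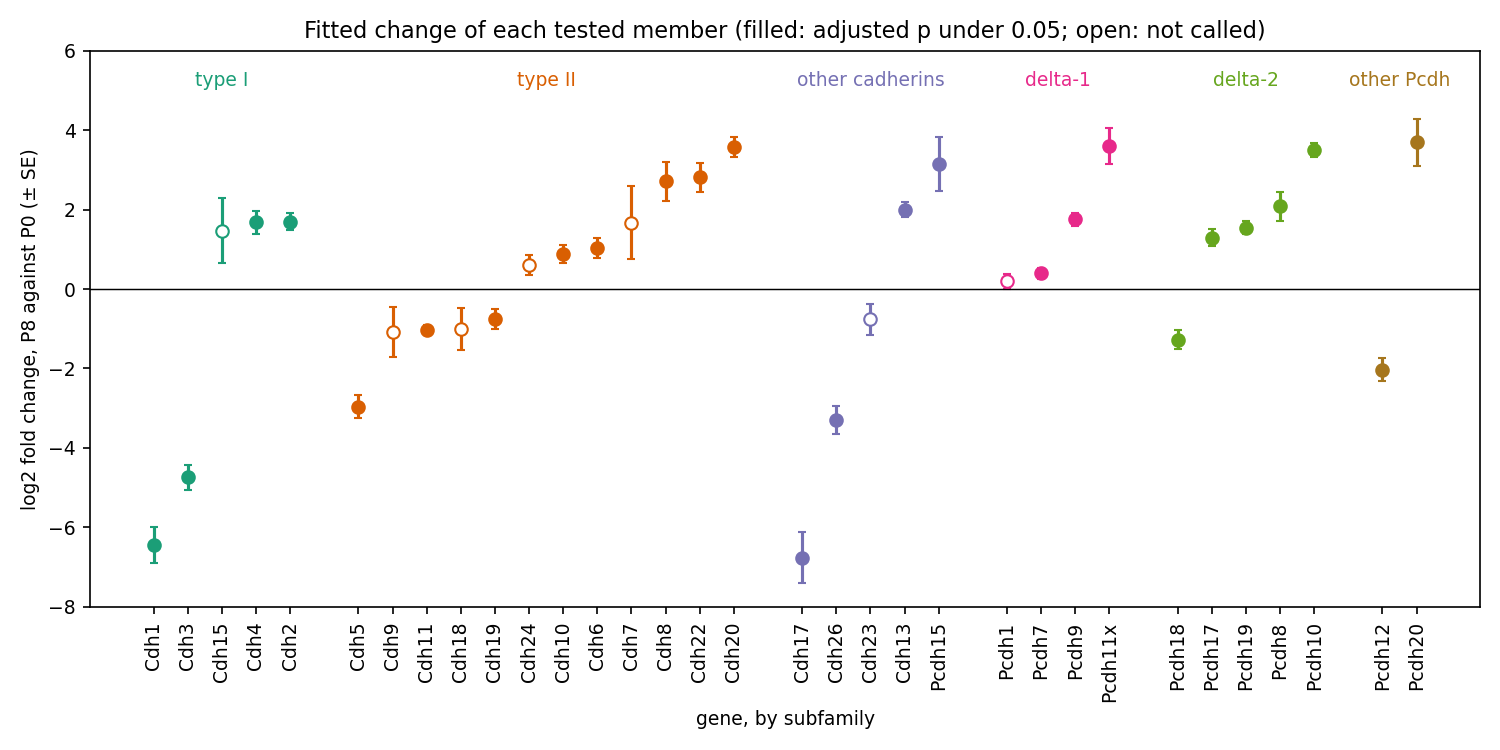
Log2 fold change of P8 against P0 with its standard error for each of the 33 tested genes, grouped by subfamily, filled where the adjusted p is under 0.05 and open where not. Type I and type II cadherins are spread on both sides of 0, from -6.44 for Cdh1 to 3.58 for Cdh20, while among 9 delta protocadherins only Pcdh18 is below 0.

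Among the remaining cadherins Cdh17 and Cdh26 fell, while Cdh13 and Pcdh15 rose. Cdh17, which encodes LI-cadherin of intestinal epithelium, measured 26.4, 20.7, 12.2 and 16.7 CPM in the 4 P0 libraries against 0.265, 0.0285, 0.0475 and 0.298 CPM in the 4 P8 libraries. It fell 109-fold (log2 fold change -6.77, SE 0.64, edgeR adjusted p = 2.9e-05), and 2 P8 libraries were at or under the floor of 3 counts. Within P0 it was highest in P0 1, as was Cdh1. Relative to the pericyte, smooth muscle and meningeal list it amounted to 0.181% to 0.287% at P0 and 0.00412% to 0.0566% at P8, and relative to the choroid plexus list to 0.0255% to 0.0899% and 0.00296% to 0.0278%, with overlap in the latter. Cdh26, a cadherin gene of mucosal epithelia, measured 5.17, 8.14, 12.1 and 10.3 CPM in the 4 P0 libraries against 0.679, 0.569, 0.966 and 1.23 CPM in the 4 P8 libraries. Its fall was 9.88-fold (log2 fold change -3.304, SE 0.35, edgeR adjusted p = 5.27e-05), beside a median log2 fold change of -5.36 over the choroid plexus list and of -3.23 over the pericyte, smooth muscle and meningeal list. Cdh26 amounted to 0.0158% to 0.0294% of the choroid plexus sum at P0 and 0.0389% to 0.467% at P8. The part of those cells was not tested for either gene. Cdh17 lies on chromosome 4 (11685294 to 11745042, plus strand) and Cdh26 on chromosome 2 (178165236 to 178222071, plus strand).

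Cdh13, which encodes T-cadherin, held to the membrane by a lipid anchor without a cytoplasmic tail, measured 9.63, 11.3, 11.9 and 16.3 CPM in the 4 P0 libraries against 46.96, 42.2, 55.1 and 41.1 CPM in the 4 P8 libraries. It rose 3.99-fold (log2 fold change 1.996, SE 0.18, edgeR adjusted p = 2.52e-05), with every P8 library well above every P0 library. Pcdh15 and Cdh23 encode the partners that form the tip link of inner ear hair cells. Pcdh15 measured 0.267, 1.82, 1.89 and 2.08 CPM in the 4 P0 libraries against 12.3, 3.84, 25.7 and 9.48 CPM in the 4 P8 libraries. It rose 8.89-fold (log2 fold change 3.15, SE 0.67, edgeR adjusted p = 0.00364), with P0 1 far below the other P0 libraries and P8 3 the highest P8 library. Cdh23 was at 2.65 to 6.01 CPM at P0 and 1.23 to 3.43 CPM at P8 and was not called (edgeR adjusted p = 0.135). Pcdh15 is also known from oligodendrocyte precursors, whose marker list summed to 1235, 793, 1862 and 1089 CPM over the P8 libraries, in the same order of libraries as Pcdh15. Of the 7 markers of that list 4 were called higher and 1 lower, and its sum at P0 was 568 to 732 CPM. Pcdh15 amounted to 0.0424% to 0.366% of the list at P0 and 0.485% to 1.38% at P8, without overlap. It thus rose by more than the summed list. Pdgfra, the marker called lower, gave 366 to 532 CPM of that sum at P0 and 44.6 to 369 CPM at P8. Gpr17, Olig1 and Olig2 rose by more than Pcdh15 (37-fold, 23.3-fold and 11.3-fold). Vcan rose by less (3.63-fold), and Cspg4 and Sox10 were not called. The part of oligodendrocyte precursors in the rise of Pcdh15 was not tested.

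**Figure D3:**
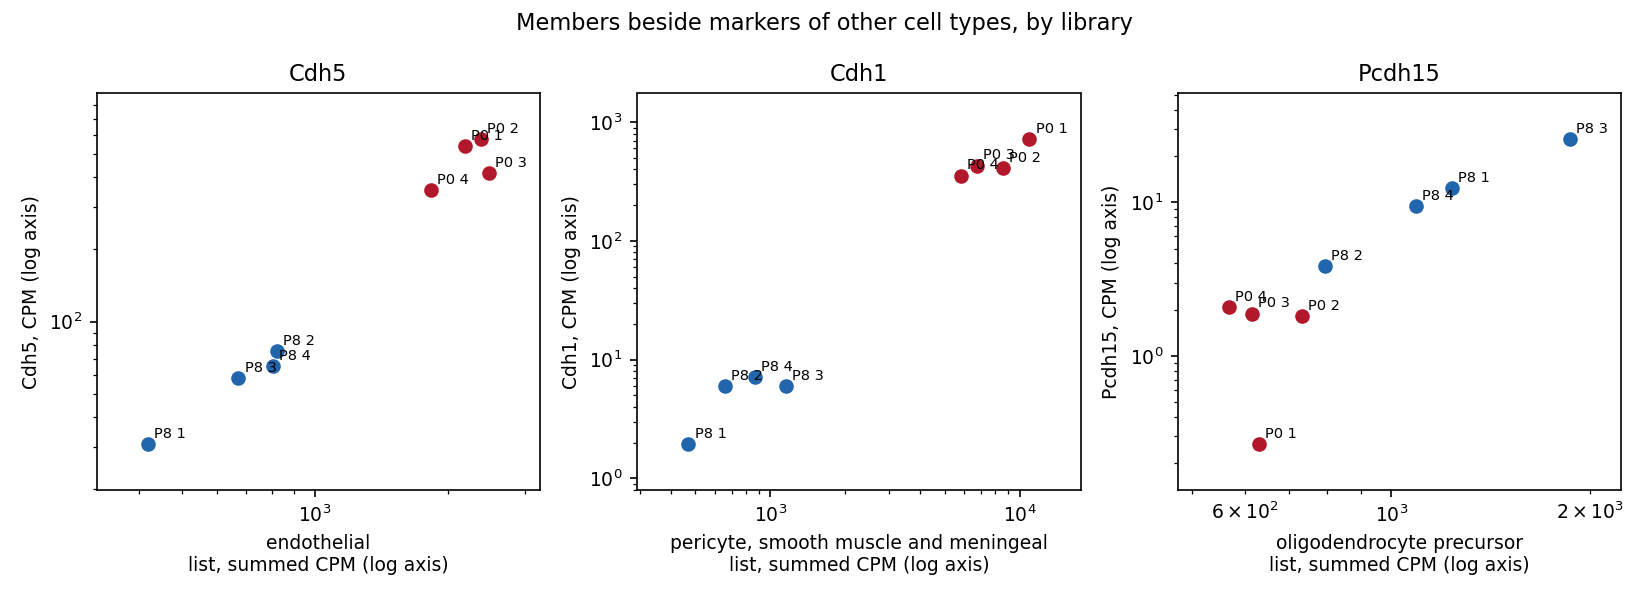
CPM of Cdh5, Cdh1 and Pcdh15 against the summed CPM of a marker list in the same library (endothelial, pericyte with smooth muscle and meningeal, and oligodendrocyte precursor), both on log axes, with P0 in red and P8 in blue. Cdh5 and Cdh1 are high in the P0 libraries, where the lists drawn beside them are high. The choroid plexus list, also set beside Cdh1 in the text and also higher at P0, is not drawn. Pcdh15 is highest in P8 3, at 25.7 CPM, where the precursor list is highest.

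Delta-1 protocadherins gave 3 higher and 1 not called of 4. Pcdh11x, an X-linked protocadherin gene of brain, measured 0.554, 1.27, 0.458 and 1.26 CPM in the 4 P0 libraries against 10.04, 5.41, 16.4 and 8.82 CPM in the 4 P8 libraries. It rose 12.1-fold (log2 fold change 3.6, SE 0.46, edgeR adjusted p = 0.000164), and its P8 libraries had the order of the oligodendrocyte precursor list given above. Pcdh11x amounted to 0.0744% to 0.222% of that list at P0 and 0.682% to 0.882% at P8, without overlap. It thus rose by more than the summed list, of which Pdgfra was the largest part at P0. Pcdh11x rose by less than the markers Gpr17 and Olig1 (37-fold and 23.3-fold) and by more than the others of the list. The part of these precursors in its rise was not tested. Pcdh9, widely made in developing brain, measured 9.897, 15.01, 16.6 and 11.9 CPM in the 4 P0 libraries against 39.8, 38.3, 47.4 and 44.9 CPM in the 4 P8 libraries. It rose 3.37-fold (log2 fold change 1.75, SE 0.17, edgeR adjusted p = 3.48e-05) with narrow ranges at both ages. Pcdh7 measured 62.6, 65.5, 57.5 and 43.8 CPM in the 4 P0 libraries against 69.4, 66.8, 79.3 and 70.4 CPM in the 4 P8 libraries, separated by a small gap only. It was called 1.32-fold higher (log2 fold change 0.397, SE 0.14, edgeR adjusted p = 0.0412). Leaving out a single library ended the call in 6 of 8 cases, all but P0 1 and P0 2, with edgeR adjusted p from 0.0625 without P8 2 to 0.0953 without P8 3 (0.08401 without P0 3, 0.0736 without P0 4, 0.0823 without P8 1 and 0.0669 without P8 4). RLE factors (adjusted p = 0.0528) and no normalisation factor (adjusted p = 0.1) ended it too. Pcdh1 measured 27.4, 40.6, 26.5 and 23.04 CPM in the 4 P0 libraries against 27.9, 34.1, 34.8 and 29.8 CPM in the 4 P8 libraries and did not pass the test (log2 fold change 0.19, SE 0.19, edgeR adjusted p = 0.421).

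Delta-2 protocadherins gave 4 higher and 1 lower of 5. Pcdh10, also called OL-protocadherin and known for guiding axon tracts and for binding the WAVE actin regulators, measured 20.2, 34.5, 28.7 and 30.9 CPM in the 4 P0 libraries against 314, 305, 324 and 279 CPM in the 4 P8 libraries. It rose 11.3-fold (log2 fold change 3.504, SE 0.18, edgeR adjusted p = 2.07e-06), with all P8 libraries close together. It amounted to 0.654% to 1.49% of the astrocyte sum at P0 and 1.67% to 2.08% at P8, without overlap. As for Cdh20, the markers Slc1a2, Aqp4, Gfap and Slc1a3 rose by more, and the other astrocyte markers called higher rose by less. The part of astrocytes in the rise of Pcdh10 was not tested. Pcdh17, a protocadherin of corticobasal ganglia circuits, measured 28.1, 61.4, 46.6 and 34.5 CPM in the 4 P0 libraries against 102, 91.1, 106 and 95.3 CPM in the 4 P8 libraries. It rose 2.45-fold (log2 fold change 1.29, SE 0.22, edgeR adjusted p = 0.000895). Pcdh19, an X-linked gene whose human counterpart is mutated in an epilepsy of females, measured 7.04, 9.74, 7.12 and 8.62 CPM in the 4 P0 libraries against 21.1, 20.6, 25.8 and 22.3 CPM in the 4 P8 libraries. Its rise was 2.92-fold (log2 fold change 1.54, SE 0.16, edgeR adjusted p = 5.27e-05), and its exons overlap the non-coding gene Gm16795 on the other strand. Pcdh8, or arcadlin, which is induced by synaptic activity, measured 1.42, 5.34, 3.96 and 4.23 CPM in the 4 P0 libraries against 14.3, 13.8, 19.5 and 11.9 CPM in the 4 P8 libraries. It rose 4.24-fold (log2 fold change 2.08, SE 0.36, edgeR adjusted p = 0.00107), with P0 1 the lowest library.

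Pcdh18 was the only delta-2 gene called lower. It measured 31.7, 60.9, 35.3 and 33.1 CPM in the 4 P0 libraries against 10.7, 16.2, 19.1 and 16.9 CPM in the 4 P8 libraries, so P0 2 was above the other 3 P0 libraries. The fall was 2.42-fold (log2 fold change -1.28, SE 0.25, edgeR adjusted p = 0.0021). Against the pericyte, smooth muscle and meningeal list Pcdh18 amounted to 0.2897% to 0.709% at P0 and 1.66% to 2.48% at P8. It thus fell by less than the summed list. It also fell by less than each of the 9 markers called lower there, while Rgs5, Acta2 and Tagln were not called. Pcdh10 lies on chromosome 3 (45182320 to 45238488, plus strand), and Pcdh18 follows 4.31 Mb further on, at 49547218 to 49561238 on the minus strand.

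Promoters of 4 genes are shown: those of Pcdh10 and Pcdh18, delta-2 genes of chromosome 3 that moved in opposite directions, and those of Cdh20 and Cdh26, cadherin genes that rose and fell. Each runs from 250 bases before to 50 bases after the annotated start, 5′ to 3′ on the gene's strand. The RefSeq table is of build GRCm38.p6, and each sequence matched NCBIM37 exactly and once, at the coordinates given. Capitals mark matches to GGGCGG or CCGCCC (the GC box on either strand), CAGGTG or CACCTG (the E-box that Snail and Zeb factors bind) and TATAAA or TTTATA, and no matches overlapped in these 4 windows.
Pcdh10, chr3:45182070-45182369 (NCBIM37, plus strand): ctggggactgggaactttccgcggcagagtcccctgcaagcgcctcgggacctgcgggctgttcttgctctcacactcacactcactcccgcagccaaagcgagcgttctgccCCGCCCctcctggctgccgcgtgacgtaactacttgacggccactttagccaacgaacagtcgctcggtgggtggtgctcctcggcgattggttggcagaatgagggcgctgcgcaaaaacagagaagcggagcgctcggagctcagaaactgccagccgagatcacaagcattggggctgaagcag
Pcdh18, chr3:49561189-49561488 (NCBIM37, minus strand): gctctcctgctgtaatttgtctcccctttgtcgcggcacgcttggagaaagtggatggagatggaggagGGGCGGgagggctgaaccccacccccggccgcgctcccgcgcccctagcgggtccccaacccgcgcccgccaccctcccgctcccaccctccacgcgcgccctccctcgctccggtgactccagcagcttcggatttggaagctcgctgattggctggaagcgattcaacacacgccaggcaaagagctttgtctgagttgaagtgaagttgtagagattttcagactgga
Cdh20, chr1:106664847-106665146 (NCBIM37, plus strand): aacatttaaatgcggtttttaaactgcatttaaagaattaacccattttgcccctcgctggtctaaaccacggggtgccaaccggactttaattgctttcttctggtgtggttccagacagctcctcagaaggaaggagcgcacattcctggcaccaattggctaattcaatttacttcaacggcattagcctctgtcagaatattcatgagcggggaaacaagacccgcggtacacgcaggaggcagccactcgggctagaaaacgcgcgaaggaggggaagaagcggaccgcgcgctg
Cdh26, chr2:178164970-178165269 (NCBIM37, plus strand): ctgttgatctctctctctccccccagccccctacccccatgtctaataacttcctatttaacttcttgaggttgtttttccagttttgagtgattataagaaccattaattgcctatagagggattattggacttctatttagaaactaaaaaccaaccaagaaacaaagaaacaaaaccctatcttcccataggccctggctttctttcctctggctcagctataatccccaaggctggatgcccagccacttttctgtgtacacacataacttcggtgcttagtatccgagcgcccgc
Pcdh10 and Pcdh18 had 24 and 23 CG dinucleotides and 1 GC box each, at positions -137 and -181 from the start. Cdh20 had 18 CG dinucleotides and Cdh26 had 4, and neither held any of the 3 motifs. The median over all 32851 promoters of the table was 7 CG dinucleotides, and over the 25 promoters of the 22 matched genes it was 14. A match is a description of the letters and not a site. The GC box was in 9 of these 25 promoters and in 35.7% of all, the E-box in 5 and in 20.2% of all, and TATAAA in 2 (Pcdh15 and Pcdh8) and in 13.6% of all. Some genes have more than 1 promoter in the table, including Cdh7 with 3, each with the E-box.

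Pcdh20 and Pcdh12 stand outside the delta groups here. Pcdh20, made by subsets of neurons, measured 1.48, 0.326, 4.01 and 1.502 CPM in the 4 P0 libraries against 20.1, 30.2, 21.5 and 18.2 CPM in the 4 P8 libraries. It rose 12.9-fold (log2 fold change 3.69, SE 0.58, edgeR adjusted p = 0.000634), and 20.97-fold without P0 3, the highest P0 library. Pcdh12, or VE-cadherin-2, an endothelial protocadherin, measured 17.8, 40.2, 24.1 and 18.2 CPM in the 4 P0 libraries against 4.12, 5.39, 7.49 and 6.17 CPM in the 4 P8 libraries. It fell 4.099-fold (log2 fold change -2.04, SE 0.29, edgeR adjusted p = 0.000361), and amounted to 0.814% to 1.69% of the endothelial sum at P0 and 0.658% to 1.11% at P8, with overlap. The shares of Cdh5 in that sum did not overlap between the ages.

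The least read genes were 7. Cdh12 and Cdh16 did not pass the filter on low counts of the test used here: Cdh12 had 4, 0, 2 and 2 counts in the P0 libraries and 44, 4, 13 and 15 in the P8 libraries. Cdh16, KSP-cadherin of kidney, had 3, 0, 0 and 6 counts at P0 and 0 in every P8 library, which allows up to 3 counts in each. Cdh9 was at 0.223 to 0.678 CPM at P0 and 0.0711 to 0.345 CPM at P8 and was not called (edgeR adjusted p = 0.178). Cdh18 was at 1.23 to 1.45 and 0.185 to 1.39 CPM (edgeR adjusted p = 0.147), and only the edgeR fit without P8 3 (adjusted p = 0.0231) and limma-voom (adjusted p = 0.0469) called it lower. Cdh7 was at 0.0366 to 0.742 and 0.157 to 1.22 CPM (edgeR adjusted p = 0.156), and was called higher without P0 4, the highest P0 library (adjusted p = 0.00888). With Cdh15 and Cdh23, these genes stayed under 5 CPM on average at both ages.

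Levels of different genes were compared per length, as RPKM. At P0 the order was led by Cdh5 (118 ± 26.2 RPKM, SD, n = 4) and Cdh1 (108 ± 36.9 RPKM), whose ranges overlapped, followed by Cdh3 (42.8 ± 12.2 RPKM) and Cdh11 (42.8 ± 4.72 RPKM), which also overlapped, and then Cdh2 (16.4 ± 4.78 RPKM). At P8 the order was led by Cdh2 (49.99 ± 3.18 RPKM), above every other gene in all libraries. Pcdh10 (25.9 ± 1.63 RPKM), Cdh13 (20.2 ± 2.77 RPKM) and Cdh11 (19.8 ± 1.38 RPKM) came next, neighbours with overlapping ranges, and then Cdh20 (16.2 ± 0.576 RPKM), below Cdh11 in range, and Cdh5 (14.4 ± 4.79 RPKM), whose wide range overlapped both. Pcdh10 moved from rank 17 to rank 2 and Cdh20 from 21 to 5, while Cdh1 moved from rank 2 to 23 and Cdh3 from 3 to 22.

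Summed over the 35 genes, the level was 438, 450.4, 382 and 341 RPKM in the P0 libraries and 227, 239.5, 268 and 231 RPKM in the P8 libraries. All P8 sums were below all P0 sums. Type I cadherins made up 37.05% to 45.4% of the sum at P0 and 24.4% to 26.1% at P8, and type II 42.6% to 48.4% and 31.8% to 36.03%. Delta-1 protocadherins made up 3.62% to 4.57% at P0 and 10.1% to 11.1% at P8, and delta-2 2.71% to 5.203% and 18.2% to 19.8%. Cdh5 and Cdh1 held means of 29.1% and 26.7% of the sum at P0, and 5.95% and 0.4905% at P8. Cdh2 held 4.18% at P0 and 20.7% at P8. These shares are descriptions and depend on the gene lengths deposited with the table.

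**Figure D4:**
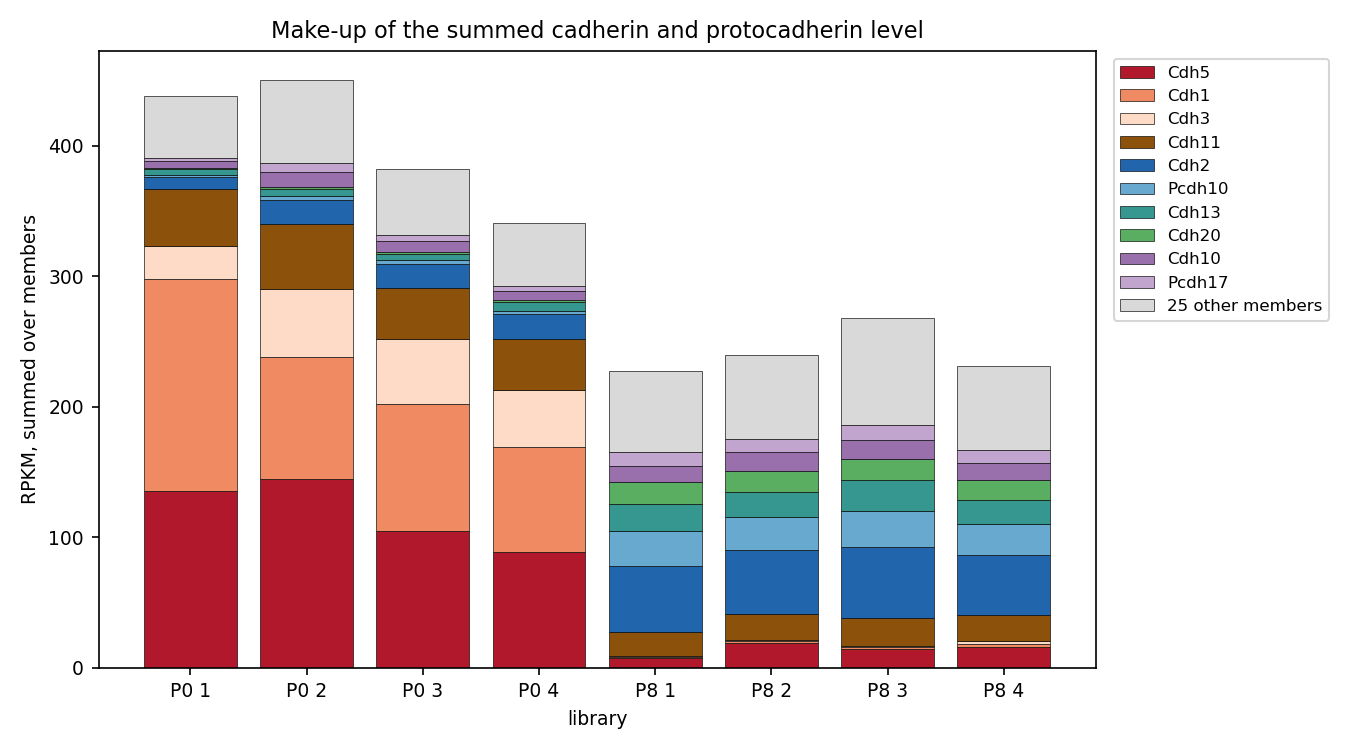
Stacked RPKM of 10 genes and of the 25 others together in each library. The bars reach 341 to 450 RPKM at P0, mostly Cdh5, Cdh1, Cdh3 and Cdh11, and 227 to 268 RPKM at P8, where Cdh2, Pcdh10, Cdh13, Cdh11 and Cdh20 are the larger parts.

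The spread within an age was not even across libraries. Of the 17 genes that rose, 13 were lowest at P0 in P0 1 and 13 were highest at P8 in P8 3. The 9 genes that fell were highest at P0 in P0 2 for 5 and in P0 1 for 2. They were lowest at P0 in P0 1 for 4 and in P0 4 for 3. The same was not counted over all genes. The coefficient of variation over 4 libraries had a median of 33.4% at P0 and 23.6% at P8 over the 33 tested genes, and was larger at P0 for 23 of them. In P0 1 the pericyte, smooth muscle and meningeal list was the highest of all libraries. The part of cell make-up in this spread was not tested. The counts called without P0 1 were 18 higher and 9 lower, and without P8 3 they were 16 and 9.

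Genes of chromosome 8 moved in both directions. It holds 8 of the 34 genes with a single position, of which Cdh11, Cdh5, Cdh3 and Cdh1 fell, Cdh8 and Cdh13 rose, Cdh15 was not called and Cdh16 did not pass the filter. Cdh5 lies there at 106625525 to 106668402 and Cdh13 at 120807633 to 121848821, both on the plus strand. On chromosome 14, Pcdh8, Pcdh17, Pcdh20 and Pcdh9 rose, and Cdh24 was not called. Both genes of chromosome X, Pcdh11x and Pcdh19, rose. On chromosome 18, Pcdh1 and Pcdh12 are 55.0 kb apart, and Pcdh12 fell while Pcdh1 was not called.

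Among genes that work with cadherins, the neural catenin genes Ctnna2 and Ctnnd2 rose while their widespread relatives Ctnna1 and Ctnnd1 fell. Of 47 tested partner genes 16 were called higher and 22 lower, beside the shares of all genes given above. Of 21 catenins and junction partners 7 were called higher, 11 lower and 3 not called, with a median log2 fold change of -0.54. Ctnna2, which encodes alpha-N-catenin of neural tissue, measured 2.32, 3.26, 4.29 and 6.33 RPKM in the 4 P0 libraries against 27.8, 19.03, 30.03 and 29.6 RPKM in the 4 P8 libraries. It rose 6.92-fold (log2 fold change 2.79, SE 0.29, edgeR adjusted p = 5.48e-05). Ctnna1, the alpha-catenin of most tissues, was at 142 ± 14.5 RPKM at P0 and 83.2 ± 3.76 RPKM at P8 and fell 1.61-fold (edgeR adjusted p = 0.00134). Ctnna2 made up 1.69% to 4.81% of the RPKM of the pair at P0 and 18.3% to 26.3% at P8.

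Ctnnd2, which encodes the neural delta-catenin, measured 1.79, 5.68, 4.58 and 4.903 RPKM in the 4 P0 libraries against 60.3, 52.1, 60.03 and 54.6 RPKM in the 4 P8 libraries. It rose 14.2-fold (log2 fold change 3.83, SE 0.32, edgeR adjusted p = 1.48e-05). Ctnnd1, its widespread relative, which steadies cadherins at the membrane, was at 55.7 ± 8.16 RPKM at P0 and 36.3 ± 2.59 RPKM at P8 and fell 1.45-fold (edgeR adjusted p = 0.00727). Ctnnd2 made up 3.401% to 9.13% of this pair at P0 and 59.9% to 63.6% at P8. Ctnnb1, the beta-catenin gene, was at 294 ± 21.4 RPKM at P0 and 239 ± 27.9 RPKM at P8, the highest of these genes, and was not called (edgeR adjusted p = 0.2), although its ages did not overlap. Ctnna3, the alpha-T-catenin gene known from heart, had 4, 0, 0 and 16 counts in the P0 libraries and rose to 1.67 ± 0.672 CPM at P8 (edgeR adjusted p = 0.00534). Its fitted fold was 16.9 and, without P0 4, 55.1.

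**Figure D5:**
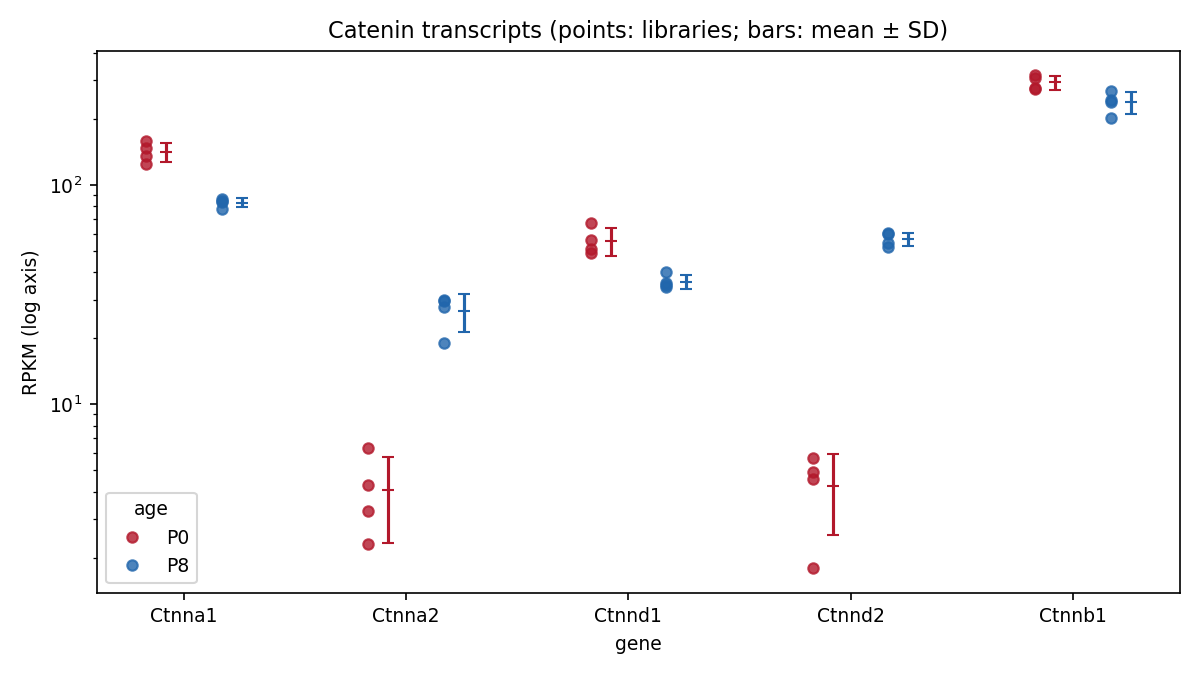
RPKM on a log axis of 5 catenin genes, with 1 point per library and the mean ± SD of 4 libraries beside it, red for P0 and blue for P8. Ctnna2 and Ctnnd2 are at most 6.33 RPKM at P0 and at least 19 RPKM at P8, while Ctnna1 and Ctnnd1 are lower at P8 than at P0.

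Other junction genes that fell were Ctnnal1, a relative of alpha-catenin, from 124 ± 32.4 to 27.3 ± 6.04 CPM (edgeR adjusted p = 3.76e-05), and the junction scaffold gene Plekha7, from 55.7 ± 22.6 to 17.98 ± 1.56 CPM (edgeR adjusted p = 0.00131). Vcl, which encodes vinculin, and Mllt4, which encodes afadin, also fell, 2.27-fold and 2.07-fold (edgeR adjusted p = 0.00406 and 0.00113). Of 8 proteases that mature or shed cadherins, 4 were called lower and 4 were not called, with a median log2 fold change of -0.29. Furin, which cuts the cadherin propeptide, was at 229.6 ± 57.6 CPM at P0 and 87.2 ± 17.5 CPM at P8 (edgeR adjusted p = 0.00068), and Adam10, which sheds N- and E-cadherin, was at 236 ± 47.05 CPM at P0 and 147 ± 14.8 CPM at P8 (edgeR adjusted p = 0.0125). Pcsk5, a related convertase gene, fell 4.76-fold (edgeR adjusted p = 3.75e-05).

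Known repressors of Cdh1 transcription split, with 3 higher and 4 lower of 7. Snai1, which encodes Snail, measured 20.1, 8.56, 14.7 and 7.49 CPM in the 4 P0 libraries against 0.244, 0.612, 0.998 and 0.754 CPM in the 4 P8 libraries. It fell 18.8-fold (log2 fold change -4.23, SE 0.49, edgeR adjusted p = 9.37e-05), in the same direction as Cdh1. Twist1 fell from 13.4 ± 5.25 to 0.609 ± 0.122 CPM, Snai2 4.94-fold and Twist2 11.3-fold (edgeR adjusted p = 8.3e-06, 0.000952 and 0.0013). Zeb1 was at 77.6 ± 13.4 CPM at P0 and 134 ± 20.97 CPM at P8 and rose 1.82-fold, Zeb2 rose 1.86-fold and Tcf4 1.92-fold (edgeR adjusted p = 0.00136, 0.00101 and 0.00102). Snai1 and Twist1 are also known from mesenchymal cells, and the pericyte, smooth muscle and meningeal list was likewise lower at P8. Its part was not tested.

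Of 8 actin regulators of the WAVE complex, to which delta-2 protocadherins bind, 5 were called higher, 1 lower and 2 not called, with a median log2 fold change of 0.51. Wasf1 was at 8.43 ± 1.79 CPM at P0 and 43.3 ± 10.9 CPM at P8 and rose 5.39-fold (edgeR adjusted p = 2.32e-05). Wasf3 was at 11.8 ± 3.67 CPM at P0 and 39.6 ± 5.53 CPM at P8 and Cyfip1 at 206 ± 12.6 CPM at P0 and 475 ± 73.1 CPM at P8, and both rose (edgeR adjusted p = 0.000172 and 0.000114). Cyfip2, the relative of Cyfip1, was at 212 ± 63.6 CPM at P0 and 91.4 ± 38.2 CPM at P8 and fell (edgeR adjusted p = 0.0182). Of 6 genes of the hair cell tip link complex, 3 were tested: Cib2 rose 4.04-fold, while Myo7a and Whrn fell 2.65-fold and 2.22-fold (edgeR adjusted p = 0.000329, 0.000691 and 0.00285).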

How the data were processed

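Gene counts, CPM and RPKM of 4 P0 and 4 P8 libraries were read from the table deposited by the authors, with CPM and RPKM as per the file headers. Deposited CPM equalled the count divided by the column total, and RPKM that value per kilobase of deposited gene length. Per the submitters' processing notes, TopHat and build mm9 (NCBIM37) were used; the sources used here do not name the read counter. The counts entered edgeR 4.0.16 under R 4.3.3 (filterByExpr, TMM factors, quasi-likelihood test, two-sided, Benjamini-Hochberg over 16808 genes, threshold 0.05). Alternatives were RLE factors, no factor, 2 other filters, DESeq2 1.42.0, limma-voom (limma 3.58.1), the replicate number as a block, and leaving out each of 8 libraries. The script was tested on simulated data. The authors' own comparison was not used here. Total counts were 30708719 to 54615722 at P0 and 63131890 to 94308235 at P8. No replicates agreed within sampling noise, the lowest chi-square per degree of freedom within an age being 76.4. Genes and lists were chosen with earlier results of these data known. Values per library are given for genes with a mean of at least 5 CPM at either age. Up to 5 called partner genes per list and direction, with the largest change, may be named, besides 5 catenins. RefSeq promoters (GRCm38.p6) gave 25 sequences for 22 genes. Values at the floor of 3 counts cover counting error only.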

Additional observations from a re-analysis of the deposited data

Results flagged for a closer look

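In 4 of 69 sets of 4 libraries (a gene at an age), 1 library lay further from the rest than Dixon's critical value allows. Chance alone gives about 1 in 20 such sets. All 4 were at P0. Cdh2 was at 43.1 CPM in P0 1, where the nearest library was at 86.4 CPM, and Pcdh15 was at 0.267 CPM in P0 1, where the nearest was at 1.82 CPM. Pcdh18 was at 60.9 CPM in P0 2, where the nearest was at 35.3 CPM. Cdh7 was at 0.742 CPM in P0 4, where the nearest was at 0.0977 CPM.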

How the results depend on the processing

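Over 7 other settings and 8 fits that left out 1 library each, 474 of 492 comparisons of a gene kept direction and side of the threshold, 13 lost a call, 5 gained one and none turned. The lost calls were all of Pcdh7 and Cdh19. Among the cadherin and protocadherin genes, higher calls ranged from 16 to 18 in the other settings and from 16 to 18 without 1 library, and lower calls from 9 to 10 and from 8 to 9. For the partner genes the ranges were 12 to 16 and 11 to 15 higher, and 21 to 22 and 20 to 22 lower. Over all genes they were 3638 to 4455 and 3395 to 4151 higher, and 3717 to 4669 and 3584 to 4209 lower.

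With the replicate number as a block, 16 cadherin and protocadherin genes were called higher and 9 lower, 12 partner genes higher and 21 lower, and 3638 of all genes higher and 3717 lower. Pcdh7 (adjusted p = 0.0597) and Cyfip2 (0.0523) were the named genes that lost their call. Deviations from the age means correlated at -0.123, -0.134, 0.0965 and 0.067 for numbers 1 to 4. Between different numbers they correlated at -0.302 to 0.35. These values gave no sign that the numbers pair the libraries, but cannot exclude it. Cdh12 and Cdh16 were left out by the filter on low counts, and all 35 genes were tested when every gene with a read was kept.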
